A study of Homo sapiens with 18 samples.

Results

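HUDEP1 clones with the short form of GATA1 were compared with a full-length clone after 4 days in differentiation medium. The comparison took the 9 day-4 libraries of the 18 in the study: 3 from the clone with full-length GATA1 (FL), and 3 from each of 2 clones with GATA1s, named 1D5 and 1KI9. HUDEP1 is an immortalised human erythroid progenitor line, and the libraries were made from poly(A) RNA. All 3 clones were kept in IMDM with 2% fetal bovine serum, 3% human AB serum, 3 U/mL erythropoietin, 10 µg/mL insulin, 3 U/mL heparin, 1 mg/mL holo-transferrin, 50 ng/mL stem cell factor and 1 µg/mL doxycycline. The other 9 libraries came from the same clones in expansion medium, which was serum-free and held 1 µM dexamethasone. Full-length GATA1 was represented by a single clone whose libraries served both contrasts, so genotype and clone cannot be told apart, and the contrasts of 1D5 and 1KI9 with FL share their controls. Nothing in the labels says that the 3 libraries of a group came from separate cultures, so p-values measure the spread between libraries, which may be technical.

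GATA1 is the zinc finger transcription factor that directs red cell development. It binds GATA sites at globin, heme synthesis and membrane protein genes, and it turns down genes of earlier progenitors such as GATA2 and KIT. GATA1s starts at a downstream methionine and lacks the N-terminal domain while keeping both zinc fingers. Germline mutations that leave only GATA1s are known from anemia with red cell hypoplasia, and somatic ones from the leukemia of Down syndrome. The title of the study asks about a metabolic role of this N-terminus.

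Values were TPM-like, that is, scaled for gene length and library, and differences are given on the log2(value + 1) scale, which understates the change of low genes. A gene was called when both clones differed from FL in the same direction with an adjusted p under 0.05 (limma, Benjamini-Hochberg over the 10754 genes tested). Globins took so different a share of the FL and GATA1s libraries that the main counts were made under 5 scalings. These were as deposited, to a total of 1000000, to the same total without globins, to the same total without globins and mitochondrially encoded genes, and by the median of ratios. Counts given with no scaling are of the deposited values.

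Promoters are shown first, because they can hold GATA sites, the sequences that GATA1 binds. The erythroid lists (heme synthesis, membrane skeleton, blood group carriers) held 26 genes at least 2-fold lower in both clones, and RefSeq (GRCh38.p14) listed a promoter for 21 of them. In the 250 bases before the first listed start, 10 of those 21 held a GATA word, that is AGATAA or its close forms ending or starting otherwise (AGATAG, which differs in the last letter, TGATAA, which differs in the first, or TGATAG, which differs in both), on either strand. The promoters of ALAS2, the first enzyme of erythroid heme synthesis, and of the gene with the most such words in each list are printed 5′ to 3′ on the gene's strand, with the words in capitals. CPOX is a later heme enzyme, EPB42 encodes a membrane skeleton protein bound to band 3, and ART4 carries the Dombrock blood group. All 4 genes lie on the minus strand, ALAS2 at chrX:55030978-55031227, CPOX at chr3:98593612-98593861, EPB42 at chr15:43221019-43221268 and ART4 at chr12:14843527-14843776.
ALAS2: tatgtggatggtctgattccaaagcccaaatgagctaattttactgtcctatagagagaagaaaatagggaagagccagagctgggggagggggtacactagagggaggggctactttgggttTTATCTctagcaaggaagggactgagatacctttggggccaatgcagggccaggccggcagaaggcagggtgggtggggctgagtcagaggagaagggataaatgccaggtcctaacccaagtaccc
CPOX: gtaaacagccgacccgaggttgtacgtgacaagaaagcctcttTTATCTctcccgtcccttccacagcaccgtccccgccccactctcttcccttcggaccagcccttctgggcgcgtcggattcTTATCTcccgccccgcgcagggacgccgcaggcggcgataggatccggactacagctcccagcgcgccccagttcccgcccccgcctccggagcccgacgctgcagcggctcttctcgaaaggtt
EPB42: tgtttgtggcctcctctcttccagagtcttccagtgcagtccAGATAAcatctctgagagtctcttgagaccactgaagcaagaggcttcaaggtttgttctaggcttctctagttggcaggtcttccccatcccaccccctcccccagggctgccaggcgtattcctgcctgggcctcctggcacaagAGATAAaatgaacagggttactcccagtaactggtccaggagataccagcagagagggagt
ART4: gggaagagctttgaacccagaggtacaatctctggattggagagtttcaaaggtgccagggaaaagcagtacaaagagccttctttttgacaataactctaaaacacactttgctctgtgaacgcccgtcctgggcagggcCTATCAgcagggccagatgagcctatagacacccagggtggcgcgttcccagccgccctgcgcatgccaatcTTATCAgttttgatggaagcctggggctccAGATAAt

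In ALAS2 the word TTATCT, which is AGATAA read on the other strand, began 127 bases before the start. CPOX held TTATCT at 207 and 125 bases before the start, and EPB42 held AGATAA at 208 and 61. ART4 held CTATCA at 109, TTATCA at 37 and AGATAA at 7. Over all 35116 listed promoters, 22.3% held a word in this window. Among genes tested at day 4 the share was 12.7% (1091 of 8583), and among genes at least 2-fold higher in both clones it was 13.0% (79 of 609). Among genes at least 2-fold lower in both clones, 24.9% (68 of 273) held a word. With genes at least 2-fold lower under all 5 scalings the share was 27.0% (51 of 189), against 12.4% (46 of 372) of those at least 2-fold higher. These are matches of letters, not measured binding.

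GATA1 itself was measured in every library, since it is the gene that sets the clones apart. It was listed at 236, 235 and 221 in FL, at 1043, 1102 and 1033 in clone 1D5, and at 941, 934 and 901 in 1KI9. All 6 GATA1s libraries were above all FL libraries, by 2.19 ± 0.04 (SE) in 1D5 and 2.00 ± 0.04 in 1KI9 on the log2 scale (adjusted p = 3.84e-12 and 5.44e-12). In expansion the mean difference of the clones from FL was 2.05, close to that at day 4. A value per gene counts all isoforms together and cannot tell the short form from the full-length one.

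Globins made up a far smaller part of the GATA1s libraries. Their share of the listed total was 39.0%, 39.4% and 38.2% in FL, a mean of 38.8% ± 0.587 (SD, n = 3). It was 19.8% ± 0.668 in 1D5 and 12.9% ± 0.435 in 1KI9 (n = 3 each). The 3 groups did not overlap, and the exact 2-sided permutation test of 6 against 3 libraries gave p = 0.0238, the smallest it can give. In bulk samples, fewer cells of a type and less RNA per cell cannot be told apart. The 13 mitochondrially encoded genes went the other way, from 9.05% ± 0.407 in FL to 16.5% ± 0.521 in 1D5 and 18.8% ± 0.479 in 1KI9 (exact permutation p = 0.0238). All other genes filled 52.1% ± 0.409 of FL, 63.7% ± 1.18 of 1D5 and 68.3% ± 0.769 of 1KI9 libraries, so any gene with an unaltered part of the rest takes a larger part of the whole in GATA1s.

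**Figure D1:**
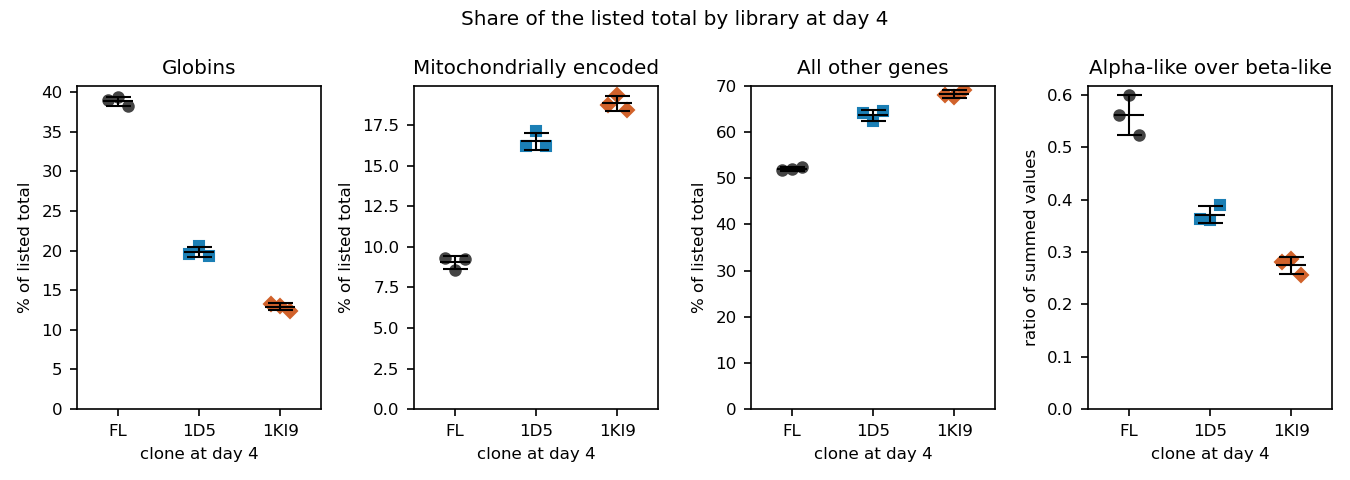
Share of the listed total taken by globins, by mitochondrially encoded genes and by all other genes (y axes, percent), and the ratio of alpha-like to beta-like globin values, in each day-4 library by clone (x axis). Points are libraries, and bars are the mean ± SD of 3; globin shares fall around 38.8% in FL, 19.8% in 1D5 and 12.9% in 1KI9 with no overlap.

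The make-up of the remaining globin RNA also differed. HBZ encodes zeta globin, the embryonic alpha-like chain. It was listed at 22052, 22920 and 20422 in FL, at 200, 224 and 198 in clone 1D5, and at 315, 325 and 279 in 1KI9. Its log2 difference was −6.71 ± 0.07 in 1D5 and −6.15 ± 0.07 in 1KI9 (adjusted p = 5.64e-14 and 6.28e-14), and HBZ made up 14.6% of alpha-like globin RNA in FL but 0.430% in 1D5 and 1.309% in 1KI9. Adult alpha globin was also lower: HBA2 differed by −1.54 and −2.64 and HBA1 by −1.24 and −2.25 in 1D5 and 1KI9. Reads of these near-identical copies may be split unevenly by RSEM, and their sum was 126417 ± 9203 in FL, 47823 ± 2941 in 1D5 and 22999 ± 2337 in 1KI9 (SD, n = 3).

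Among beta-like chains, HBE1 (epsilon, embryonic) was listed at 66731, 65739 and 64746 in FL, and its groups did not overlap with 17017, 18688 and 16441 in 1D5 or 13440, 13344 and 12535 in 1KI9. Fetal gamma globin, the sum of HBG1, HBG2 and 2 Ensembl gene models that overlap them, mainly ENSG00000284931, since their sequences are nearly identical, came to 199217 ± 3190 in FL, 112649 ± 10164 in 1D5 and 71999 ± 3595 in 1KI9. The files assign these reads unevenly: the FL means were 142236 for HBG2, 183 for HBG1 and 56732 for ENSG00000284931. Gamma took a larger part of beta-like RNA in the clones, 86.6% in 1D5 and 84.6% in 1KI9 against 75.1% in FL, and HBE1 a smaller one, 13.4% and 15.4% against 24.8%. Adult HBB, at 171 in FL on average, differed by −2.45 and −3.40. Alpha-like over beta-like values came to 0.562 ± 0.0382 in FL, 0.371 ± 0.0161 in clone 1D5 and 0.275 ± 0.0159 in clone 1KI9, and each of these shares and the ratio had p = 0.0238 in the exact permutation test. Of the 10 globin genes, 9 were called lower in both clones and 8 under all 5 scalings. HBD, at 8.58 in FL, 6.62 in clone 1D5 and 10.99 in clone 1KI9, was not called, the clone means lying on opposite sides of FL. AHSP, the chaperone of free alpha globin, was listed between 1235 and 1264 in FL and between 166 and 199 in both clones, −2.79 ± 0.06 and −2.83 ± 0.06.

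Across all genes, 7550 of 10754 were called in both clones (70.2%), 5878 higher (54.7%) and 1672 lower (15.5%). At least 2-fold differences in both clones were found for 815 genes higher (7.58%) and 356 lower (3.31%), together 10.9%. With a pseudocount of 5 in place of 1, which damps low genes, 366 were higher and 225 lower. The median gene stood 0.30 above FL on the log2 scale in the deposited values, and 0.56, 0.17, 0.28 and 0.00 above it after scaling to the total, without globins, without globins and mitochondrial genes, and by the median of ratios. The split between higher and lower moved with it: 7659 higher (71.2%) and 924 lower (8.59%) scaled to the total, 4361 (40.6%) and 2190 (20.4%) without globins, 5398 (50.2%) and 1820 (16.9%) without globins and mitochondrial genes, and 3169 (29.5%) and 3349 (31.1%) by the median of ratios. At 2-fold it ranged from 1381 higher (12.8%) and 244 lower (2.27%) scaled to the total to 495 (4.6%) and 563 (5.24%) by the median of ratios. Under all 5 scalings, 3169 genes were called higher (29.5%) and 924 lower (8.59%), and at least 2-fold in each, 495 (4.6%) higher and 244 (2.27%) lower. The higher counts are those by the median of ratios and the lower counts those scaled to the total. Each direction was thus set by the scaling least favourable to it, and the balance between them is not a result. Counts for the gene lists below are to be read against these shares and the 54.7% and 15.5% as deposited. Differences under about 0.5 in size are therefore read below only with their count under all 5 scalings. FL and GATA1s libraries did not overlap at all for 70.7% of the genes tested.

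Heme synthesis was lower as a list. Heme, the iron-holding ring of hemoglobin, is built by enzymes shared between mitochondria and cytosol. Of 16 genes tested, 15 were called lower, 12 of them under all 5 scalings, and none higher, with a median of −0.90 against 0.30 for all genes. ALAS2 was listed at 2219, 2131 and 2082 in FL, at 614, 653 and 614 in clone 1D5 and at 359, 360 and 353 in clone 1KI9. The differences were −1.77 ± 0.04 and −2.58 ± 0.04 (adjusted p = 1.37e-11 and 6.12e-13) with no overlap between the 3 clones. ALAD, the enzyme that follows ALAS2, was at 87.1, 91.8 and 86.9 in FL, at 15.02, 13.95 and 14.42 in clone 1D5 and at 16.8, 16.5 and 15.6 in clone 1KI9. The 6 GATA1s values lay within a narrow band well under FL. Further down the pathway CPOX differed by −1.55 and −1.61 and FECH, which inserts the iron, by −1.39 and −1.53. UROD was nearer to FL, at −0.48 and −0.68. ALAS1, the housekeeping isoform of the first enzyme, was the member not called, at 23.5 in FL, 24.3 in clone 1D5 and 28.0 in clone 1KI9. In expansion the list's median difference was 0.04, and for 15 of its 16 genes the difference from FL was lower at day 4 than in expansion beyond its error, as it was for 19.7% of all genes.

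Iron handling was divided. TFRC, the transferrin receptor that brings iron in, was listed at 1207, 1229 and 1300 in FL and between 269 and 341 in the 6 GATA1s libraries, −2.00 ± 0.08 in each clone. SLC25A37, mitoferrin, which carries iron into mitochondria, was at 3306, 3413 and 3305 in FL, 542, 450 and 560 in 1D5 and 324, 301 and 340 in 1KI9. ERFE, the erythroblast hormone that lowers hepcidin, was at 21.1, 21.5 and 20.8 in FL and at most 0.50 in any GATA1s library. In contrast HEPH, a copper ferroxidase of iron export, was at 11.1, 9.61 and 11.53 in FL, 154, 146 and 154 in 1D5 and 148, 142 and 147 in 1KI9. Of 21 iron genes, 9 were called lower (6 under all 5 scalings) and 4 higher (3 under all 5). The storage subunit FTH1, at 9731 in FL, 10869 in clone 1D5 and 8065 in clone 1KI9, and the exporter SLC40A1, at 202, 175 and 227, were not called as deposited, though SLC40A1 was called lower by the median of ratios (−0.36).

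Genes of the red cell membrane were lower together. The skeleton ties a spectrin mesh to band 3 and glycophorins through ankyrin and protein 4.1. Its list also holds the glucose transporter SLC2A1, counted again under glycolysis. Of the 16 genes, 13 were called lower, 11 under all 5 scalings, with a median of −1.01. SLC4A1, band 3, the anion exchanger, was listed at 1381, 1376 and 1347 in FL, at 363, 344 and 357 in clone 1D5 and at 214, 208 and 216 in clone 1KI9. EPB42 was at 105, 99.5 and 98.8 in FL, 20.3, 22.5 and 21.7 in 1D5 and 13.0, 13.1 and 12.5 in 1KI9. Both showed the order FL, 1D5, 1KI9 in every library. The beta spectrin gene SPTB was closer to FL, at −0.89 and −0.94. MPP1 (0.28 and 0.31) and STOM (0.22 and 0.16) were called higher as deposited, but their mean differences were −0.04 and −0.15 by the median of ratios.

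Blood group carriers gave 15 of 24 lower (13 under all 5 scalings) and 5 higher (5), with a median of −0.89. GYPC, the Gerbich glycophorin that anchors protein 4.1, was listed at 1404, 1421 and 1334 in FL, at 214, 246 and 219 in clone 1D5 and at 181, 185 and 167 in clone 1KI9, −2.61 ± 0.06 and −2.96 ± 0.06. KEL was at 164, 165 and 163 in FL and between 31.3 and 41.4 in the GATA1s libraries. RHD separated the clones, at 63.8, 63.3 and 62.6 in FL, 19.1, 18.3 and 17.7 in 1D5 and 5.38, 5.05 and 5.78 in 1KI9, although reads may be split between RHD and its near-copy RHCE. The members higher in both clones were CD59, CD55, CD47, CD44 and the urea transporter SLC14A1, the first 3 being surface shields against complement or phagocytes. CD59 stood at 271 in FL, 471 in clone 1D5 and 457 in clone 1KI9. RHAG, the partner of the Rh proteins, was at 451, 523 and 433 and was not called.

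Late erythroid genes, which rise as the cell fills with hemoglobin and clears its organelles, had 19 of 23 called lower (18 under all 5 scalings) and 1 higher, with a median of −1.29. Some lists share members, as this one shares ALAS2 with heme synthesis, so their counts are not separate results. SELENBP1, an abundant red cell selenium-binding methanethiol oxidase, was listed at 237, 240 and 222 in FL, 11.47, 10.4 and 10.4 in 1D5 and 2.19, 2.58 and 2.62 in 1KI9. This was −4.32 ± 0.06 and −6.08 ± 0.06 (adjusted p = 7.62e-13 and 6.20e-14), and 1KI9 differed from 1D5 by −1.76 (adjusted p = 1.2e-08). PRDX2, the main red cell peroxiredoxin, was at 1176, 1143 and 1093 in FL and between 166 and 207 in GATA1s. Carbonic anhydrases differed, with CA2 lower (−0.71 and −1.32) and CA1 not called (74.2 in FL, 97.4 in clone 1D5 and 76.1 in clone 1KI9).

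Transcription factors of the lineage gave 15 of 24 lower (10 under all 5 scalings) and 7 higher (5), the latter including GATA1. KLF1, which drives adult erythroid genes, was listed at 434, 448 and 396 in FL, 208, 239 and 208 in 1D5 and 207, 201 and 174 in 1KI9. FOXO3 differed by −1.39 and −1.70, GFI1B by −0.91 and −1.28, and E2F2, an erythroid E2F, by −1.65 and −2.40. Of the factors of earlier or other blood cells, GATA2 was at 52.1, 50.2 and 49.1 in FL, 109, 113 and 111 in 1D5 and 106, 102 and 98.7 in 1KI9. SPI1, PU.1 of the myeloid lineage, was at 0.90, 1.46 and 1.25 in FL, 5.35, 5.32 and 5.04 in 1D5 and 11.96, 10.6 and 10.8 in 1KI9. MYB, a progenitor factor, was at 24.2, 24.6 and 25.2 in FL, 75.9, 68.0 and 74.2 in clone 1D5 and 112, 106 and 117 in clone 1KI9. The GATA1s libraries thus held less KLF1, FOXO3 and GFI1B RNA and more GATA2, SPI1 and MYB RNA than any FL library. ZFPM1, FOG1, the cofactor that binds the N-terminal zinc finger, was lower, at −0.53 and −0.60.

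The receptors for the supplied cytokines moved apart. EPOR, the erythropoietin receptor, was listed at 97.4, 98.7 and 89.4 in FL, 25.9, 26.1 and 26.4 in 1D5 and 28.2, 26.2 and 24.9 in 1KI9 (−1.82 ± 0.05 and −1.81 ± 0.05). KIT, the stem cell factor receptor, was at 69.1, 73.1 and 72.4 in FL, 273, 224 and 269 in 1D5 and 264, 257 and 285 in 1KI9 (1.82 ± 0.07 and 1.89 ± 0.07). In expansion KIT had differed by −0.01 and EPOR by −0.29. CISH, a feedback inhibitor of the receptor, was lower, at −1.15 and −1.25, as were PIM1, a kinase, at −1.03 and −1.08, and JAK2, the kinase of EPOR, at −0.90 and −0.77. Of the 17 signalling genes, 9 were called higher (8 under all 5 scalings) and 6 lower (5), where 54.7% and 15.5% of all genes were called, so the share higher was near that of all genes.

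Glycolysis split by isoform. Glycolysis turns glucose into pyruvate, and mature red cells depend on it and on a bypass that makes 2,3-bisphosphoglycerate. Of 22 genes, 14 were called higher (11 under all 5 scalings) and 6 lower (6), against 54.7% (29.5%) and 15.5% (8.59%) of all genes. The lower 6 were BPGM, the mutase of that bypass, SLC2A1, the red cell glucose transporter, PFKM, PKLR, HK1 and the lactate carrier SLC16A1. BPGM was listed at 311, 305 and 323 in FL, 65.2, 67.8 and 63.4 in 1D5 and 41.2, 40.5 and 40.0 in 1KI9. PKLR, the gene of red cell pyruvate kinase, was at 59.4, 59.4 and 58.0 in FL, 13.2, 14.1 and 14.1 in 1D5 and 17.7, 17.4 and 17.8 in 1KI9. PKM, the pyruvate kinase of most other cells, was at 145, 138 and 140 in FL, 1029, 1059 and 1013 in 1D5 and 1266, 1281 and 1254 in 1KI9. Pyruvate kinase RNA thus differed in opposite directions by gene, PKLR by −2.02 ± 0.04 and −1.69 ± 0.04 and PKM by 2.86 ± 0.04 and 3.16 ± 0.04. The same held for phosphofructokinase (PFKM −2.19 and −2.13, PFKP 1.49 and 1.45), hexokinase (HK1 −1.36 and −1.28, HK2 0.66 and 1.05) and glucose transporters (SLC2A1 −1.99 and −2.74, SLC2A3 1.47 and 2.72). HK2 was low throughout, at 0.937 in FL and 3.01 in 1KI9. ENO1 (1.14 and 1.24), PGAM1 (1.04 and 1.16) and GPI (0.93 and 1.01), enzymes of the shared steps, were higher. In expansion the list's median was −0.02, and at day 4 the difference from FL was higher than in expansion for 13 of the 22 and lower for 6, against 45.4% and 19.7% of all genes in that fit.

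**Figure D2:**
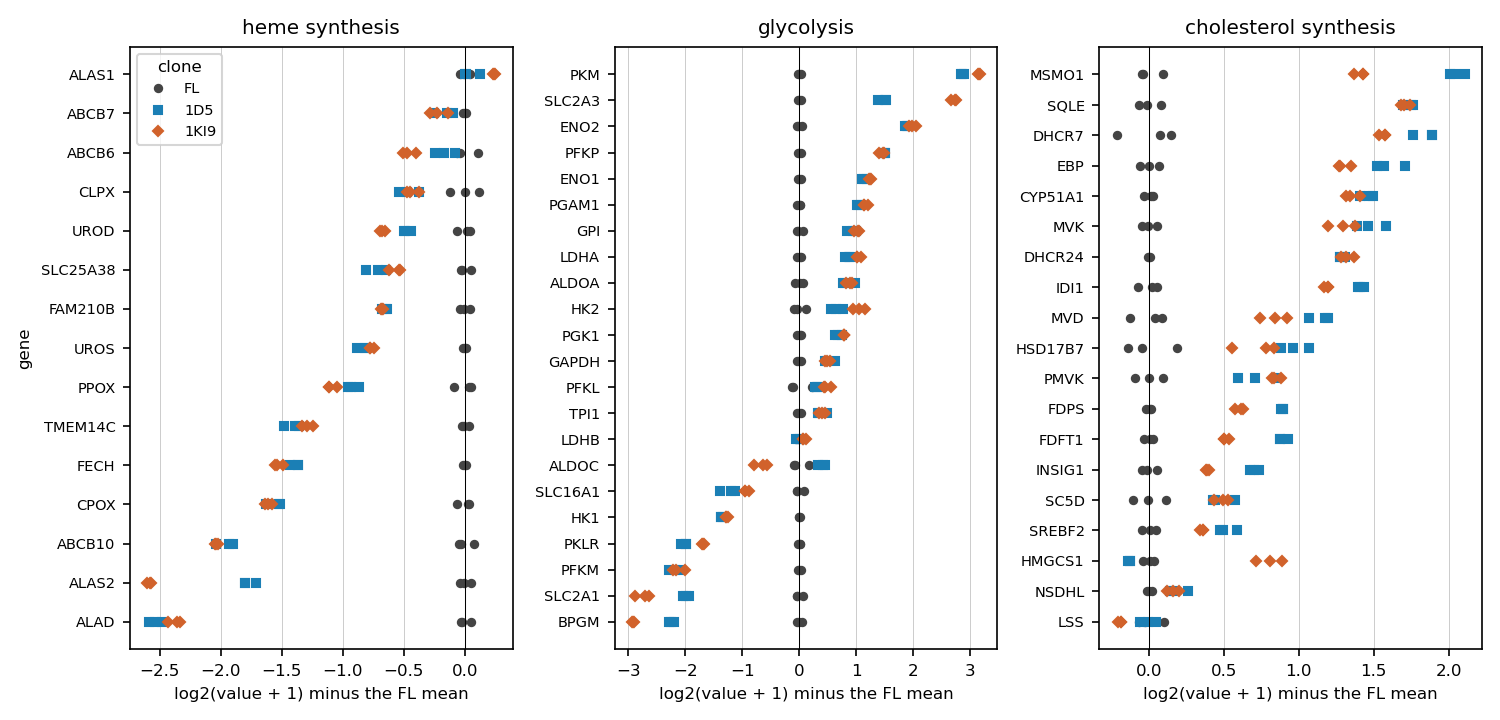
Each library's log2(value + 1) minus the FL mean (x axis) for reported genes (y axis) of heme synthesis, glycolysis and cholesterol synthesis; points are day-4 libraries of FL, 1D5 and 1KI9. Heme genes lie left of FL except ALAS1, glycolysis spreads from BPGM (−2.24 and −2.92) to PKM (2.86 and 3.16), and most cholesterol genes lie right of FL.

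Cholesterol synthesis was higher. Of 22 genes, 19 were called higher (15 under all 5 scalings) and 1 lower (1), against 54.7% (29.5%) and 15.5% (8.59%) of all genes. The list's median was 0.92 against 0.25 in expansion. MSMO1, a sterol oxidase, was listed at 23.0, 23.0 and 25.4 in FL, 106, 98.7 and 101 in 1D5 and 62.9, 65.5 and 65.7 in 1KI9. SQLE, squalene epoxidase, was at 36.6, 35.1 and 39.0 in FL, 126, 122 and 128 in 1D5 and 122, 121 and 126 in 1KI9. In this list 1D5 stood farther from FL: 11 genes were lower and 1 higher in 1KI9 than in 1D5, against 10.8% and 18.7% of all genes.

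Respiratory subunits are encoded in part by mitochondrial DNA and in part by the nucleus. All 13 mitochondrially encoded genes were called higher, 11 of them under all 5 scalings, with a median of 0.75, from MT-CO1 (0.44 and 0.45) to MT-ND6 (1.36 and 1.51). Of 37 nuclear complex I genes 26 were called higher and none lower, but 2 remained higher under all 5 scalings. That list's median was 0.26, near the 0.30 of all genes, and −0.08 by the median of ratios. ATP synthase (9 of 16 higher and 2 lower, of which 2 and 0 under all 5 scalings) and complexes II to IV (12 of 24 higher and 4 lower, of which 3 and 0) had medians of 0.23 and 0.17, which became −0.11 and −0.16 by the median of ratios.

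Actin genes were higher. Of 20 tested, 19 were called higher, 16 under all 5 scalings, against 54.7% and 29.5% of all genes, with a median of 1.20. TMSB4X, the actin-sequestering thymosin beta 4, was listed at 0, 0 and 0.12 in FL, 711, 745 and 692 in clone 1D5 and 844, 877 and 799 in clone 1KI9. The same pattern stood in expansion, where the mean difference was 9.88, and near-identical copies of this gene elsewhere in the genome make its value uncertain. LCP1, L-plastin of blood cells, was at 4.96, 4.92 and 5.65 in FL, 52.3, 49.3 and 52.0 in 1D5 and 114, 116 and 121 in 1KI9. CAPG, a gelsolin-like capper, was at 5.67, 5.77 and 5.51 in FL, 56.9, 62.2 and 58.1 in 1D5 and 127, 124 and 119 in 1KI9. FLNA, filamin A, differed by 2.52 ± 0.04 and 2.75 ± 0.04. MYL6, at 1152 in FL, 1058 in clone 1D5 and 1046 in clone 1KI9, was not called as deposited (mean difference −0.13). It was called lower with the replicate number as a block (−0.13), without 1 library of 1D5 (−0.16), without globins (−0.29), without globins and mitochondrial genes (−0.18) and by the median of ratios (−0.47), and its difference was 0.16 scaled to the total.

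Lysosomal genes were called higher for 18 of 26 (16 under all 5 scalings) and lower for 3 (2), with a median of 0.79. Of all genes, 54.7% were called higher (29.5% under all 5 scalings) and 15.5% lower (8.59%). Cathepsin D, CTSD, was listed at 176, 170 and 156 in FL, 479, 524 and 482 in 1D5 and 635, 651 and 602 in 1KI9. CTSA (1.60 and 1.94) and CTSB (1.44 and 1.65) were higher, whereas CTSL was lower, at −0.79 and −0.90. The other 5 were not called. In 16 of the 26 genes 1KI9 was higher than 1D5.

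Genes of other blood lineages were examined with the markers of each cell type. The 8 erythroid markers were present in every library and all lower, their values summing to 57239–65242 in FL, 23933–26500 in 1D5 and 11645–13520 in 1KI9. Of 23 monocyte and neutrophil genes, 17 were among the genes listed and 12 passed the filter on low values. Of these 12, 10 were called higher (10 under all 5 scalings), against 54.7% (29.5%) of all genes. Their median was 2.14. A member near 0 in FL, such as EVI2B, passed the filter only through the GATA1s libraries. The filter thus favours calls of higher, and the count is a description. ACP5, an acid phosphatase of macrophages and osteoclasts, was listed at 1.05, 1.00 and 0.71 in FL, 21.8, 18.3 and 21.9 in 1D5 and 91.9, 93.1 and 87.7 in 1KI9. CD68, a lysosomal protein of macrophages, was at 40.3, 43.0 and 43.4 in FL and between 319 and 389 in GATA1s. The monocyte and neutrophil markers summed to 44.4–48.3 in FL, 334–356 in clone 1D5 and 407–430 in clone 1KI9, most of it CD68. CSF1R, CEBPA and ELANE stayed under 1 in all 9 libraries, and CD14, FCER1G and MPO were not among the genes listed. Lymphocyte markers summed to at most 0.780.

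Mast cell, basophil and eosinophil genes were divided. TPSB2, a mast cell tryptase, was listed at 43.2, 39.7 and 39.0 in FL, 144, 153 and 144 in 1D5 and 275, 271 and 257 in 1KI9. PRG2, eosinophil major basic protein, was at 316, 308 and 302 in FL, 16.2, 17.7 and 16.0 in 1D5 and 30.1, 31.6 and 29.1 in 1KI9. Of 9 genes, 7 were called higher (5 under all 5 scalings) and 2 lower (1), against 54.7% (29.5%) and 15.5% (8.59%) of all genes. MS4A2 and EPX stayed under 1. Megakaryocyte and platelet genes were few: ITGB3 (2.29 and 1.82) and THBS1 (3.18 and 2.41) were higher, TUBB1 (−1.06 and −1.28) lower, and GP9 and VWF under 1. Of 13 stem and progenitor genes, 7 were among the genes listed and 4 passed the filter on low values, KIT, MYB, GATA2 and MECOM. All 4 were called higher (4 under all 5 scalings), as were 54.7% (29.5%) of all genes. The stem cell genes CD34, MEIS1, HOXA9, HOXA10, PROM1 and SPINK2 were not among the genes listed, and HLF and FLT3 stayed under 1. What part any such cells had in the other differences was not tested.

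The 12 genes farthest above FL in both clones, with a group mean of at least 20, included TMSB4X, CSF1, GSTM3, APP, AREG, CREB3L1, EVI2B, AKR1C1, HPGD, CHST3 and HEPH. CSF1, macrophage colony-stimulating factor, was listed at 1.33, 1.42 and 1.26 in FL, 317, 322 and 322 in 1D5 and 211, 214 and 208 in 1KI9, 7.10 ± 0.04 and 6.5 ± 0.04. AREG, amphiregulin of the EGF family, was at 1.55, 1.14 and 1.24 in FL, 50.1, 50.2 and 51.5 in clone 1D5 and 48.8, 49.4 and 47.8 in clone 1KI9. The difference between the clones did not pass for AREG (adjusted p = 0.55), while CSF1 differed by −0.60 in 1KI9 from 1D5 (adjusted p = 9.0e-07). GSTM3, a glutathione S-transferase, was at 5.55, 4.53 and 5.02 in FL, 199, 226 and 198 in 1D5 and 246, 244 and 231 in 1KI9, though related GSTM genes may share its reads. AKR1C1, an aldo-keto reductase, was at 43.2, 43.0 and 43.7 in FL and between 615 and 734 in GATA1s. HPGD, which inactivates prostaglandins, was at 27.5, 29.9 and 28.8 in FL, 421, 411 and 419 in 1D5 and 541, 554 and 561 in 1KI9. In APP, the amyloid precursor protein, 1KI9 stood above 1D5 by 0.33.

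Of those, CHST3, EVI2B and TMSB4X were under 0.5 in every FL library and at least 10 in all 6 of GATA1s, as were EVI2A, PRSS23, FMNL1 and C2orf72. EVI2B and EVI2A, which lie side by side, had 43.9 and 23.5 in 1KI9 and 21.9 and 12.3 in 1D5 on average. The reverse pattern was met by 2 genes. EMC10, which helps insert proteins into the endoplasmic reticulum membrane, was at 16.9, 17.9 and 15.9 in FL, 0.02, 0.04 and 0.03 in 1D5 and listed at 0 in all 3 libraries of 1KI9. CDC42EP1, an effector of a small GTPase of the cytoskeleton, was at 15.9, 15.6 and 13.7 in FL and at most 0.38 in GATA1s. Both already differed in expansion, by −3.88 and −3.47.

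**Figure D3:**
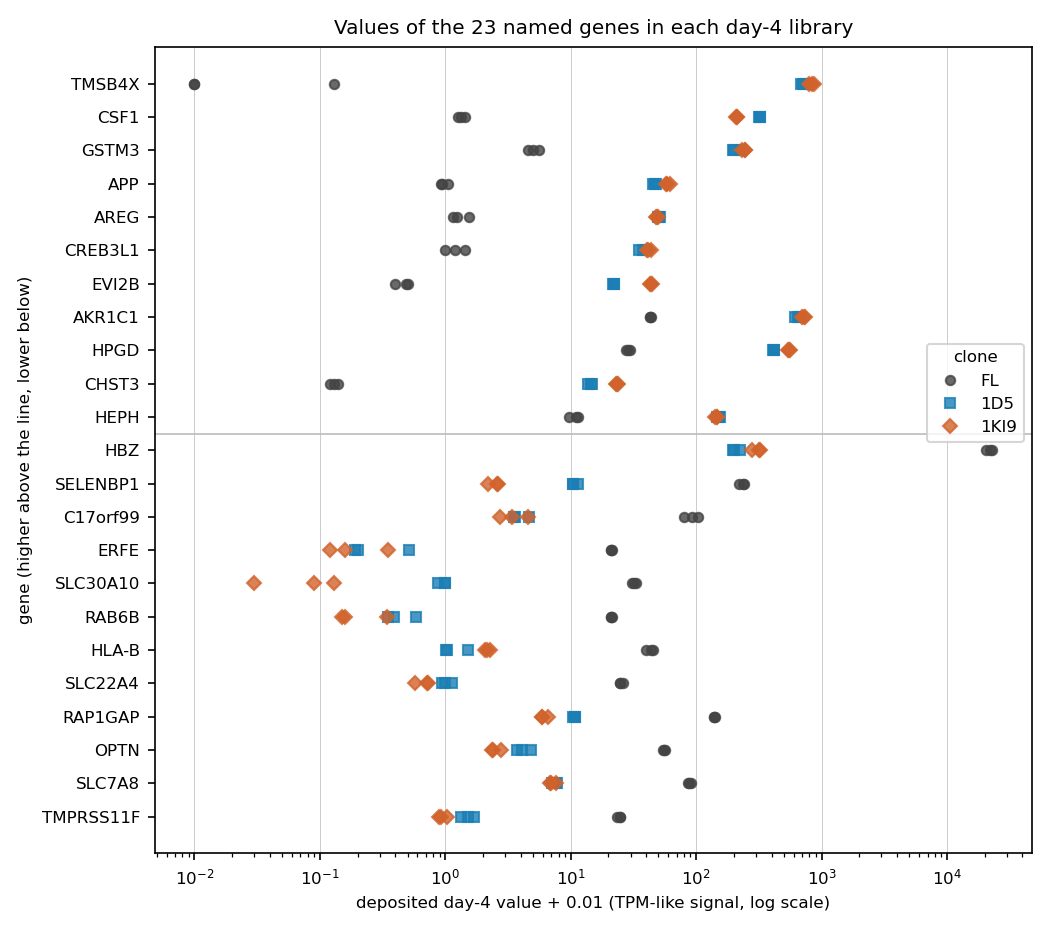
Deposited value + 0.01 in each day-4 library (x axis, log scale) for 11 of the 12 genes farthest above and the 12 farthest below FL in both clones (y axis); points are libraries by clone. The genes were chosen for their distance from FL, which favours a gap between the groups. The FL points lie apart from all 6 GATA1s points in each of the 23 genes, as for 70.7% of all genes tested.

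The 12 farthest below FL were HBZ, SELENBP1, C17orf99, ERFE, SLC30A10, RAB6B, HLA-B, SLC22A4, RAP1GAP, OPTN, SLC7A8 and TMPRSS11F. SLC30A10, a manganese exporter, was listed at 30.7, 33.0 and 31.8 in FL, 0.98, 0.87 and 0.98 in clone 1D5 and 0.02, 0.08 and 0.12 in clone 1KI9. The metal importer SLC39A8 differed by −2.99 and −2.81. HLA-B, a class I antigen-presenting chain, was at 44.9, 43.4 and 39.8 in FL, 1.00, 1.5 and 1.03 in 1D5 and 2.27, 2.05 and 2.13 in 1KI9, but reads of HLA genes may be assigned unevenly between alleles and copies. OPTN, optineurin, an autophagy receptor, was at 55.7, 56.3 and 54.4 in FL, 4.11, 4.83 and 3.71 in 1D5 and 2.34, 2.41 and 2.76 in 1KI9. RAP1GAP, which switches off RAP1, was at 139, 143 and 138 in FL and between 5.86 and 10.9 in GATA1s. SLC7A8, an amino acid transporter, was at 90.3, 86.0 and 88.1 in FL, 7.81, 7.61 and 7.07 in 1D5 and 6.96, 7.63 and 6.87 in 1KI9. SLC22A4, the ergothioneine transporter, was at 26.03, 24.7 and 24.8 in FL and at most 1.13 in GATA1s.

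The differences were compared with those in expansion in a fit of all 18 libraries, in which each condition's clones were set against their own FL libraries. The difference of the clones from FL was not the same at day 4 as in expansion for 7172 of 11015 genes (65.1%), higher at day 4 for 4999 (45.4%) and lower for 2173 (19.7%), for 7118 and 1287 scaled to the total, and for 3418 and 3369 by the median of ratios. Of the 356 genes at least 2-fold lower at day 4, 340 had a value in that fit, and 320 stood farther below FL at day 4 and 4 nearer, with medians of −1.62 at day 4 and −0.25 in expansion. Of the 815 higher, 629 of 812 stood farther above and 48 nearer, with medians of 1.51 and 0.68. Both sets were chosen for their distance from FL at day 4, which favours a larger distance there, so these counts are a description. SELENBP1 differed by −0.75 in expansion, SLC7A8 by −0.38, HLA-B by −0.18, TMPRSS11F by −0.07 and OPTN by −0.05. HBZ stood at −5.61 in expansion and its change between conditions did not pass (adjusted p = 0.086). GSTM3 (5.92) and HEPH (4.38) had been farther from FL in expansion. The media differ in serum and dexamethasone, and insulin, heparin and holo-transferrin are listed for day 4 only. Since the day-4 values also carry a scaling of their own, condition, medium and scaling cannot be told apart.

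**Figure D4:**
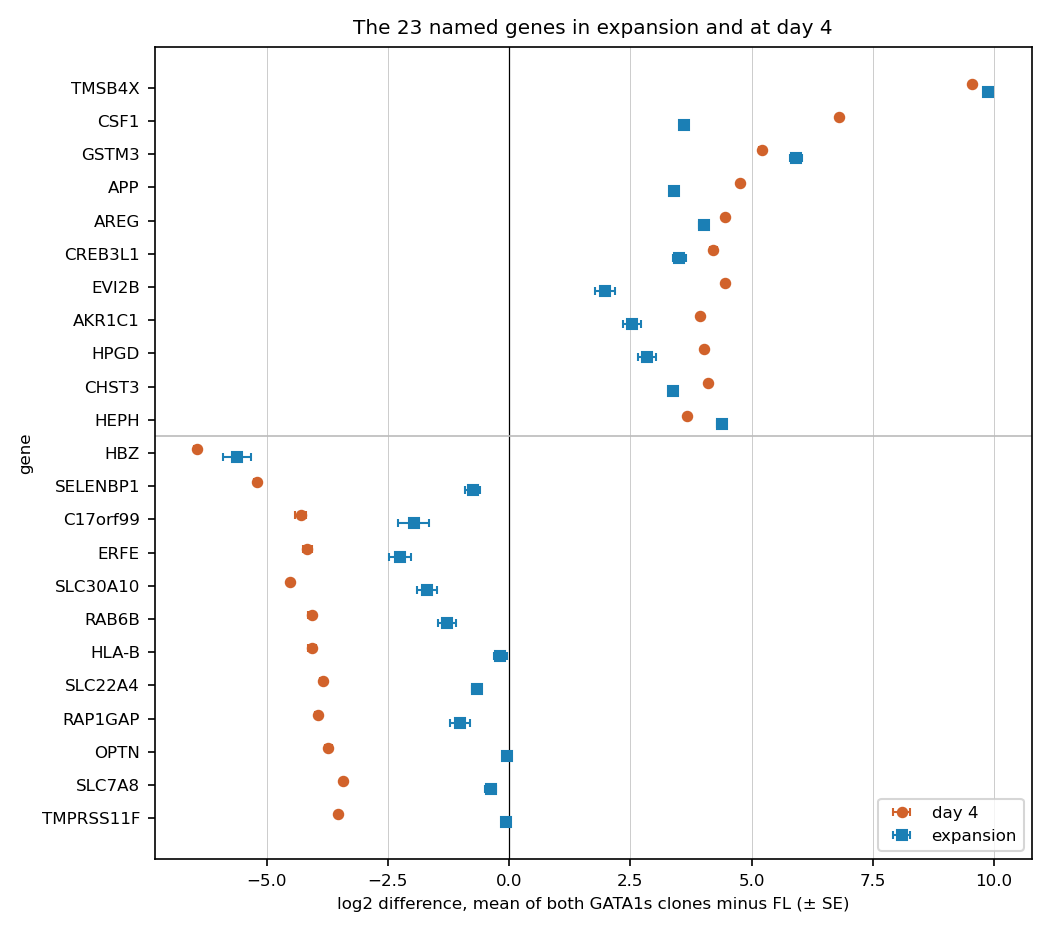
Log2 difference of the mean of both GATA1s clones from FL (x axis), ± SE, at day 4 and in expansion for the 23 named genes (y axis). The lower genes other than HBZ lie between −2.25 (ERFE) and −0.05 (OPTN) in expansion and at −3.42 (SLC7A8) or below at day 4, while GSTM3 and HEPH lie farther out in expansion.

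The clones were also set against each other. They differed in 3173 genes (29.5%), 2008 higher (18.7%) and 1165 lower (10.8%) in 1KI9, and in 2065 (1358 and 707) when the spread was estimated from all 18 libraries. Scaled to the total the split was 3215 and 702, and by the median of ratios 1387 and 1514. As deposited, of the 815 genes higher in both clones, 435 differed between them, and 1KI9 was the farther from FL in 337 and 1D5 in 98. Of the 356 lower, 179 differed, 154 with 1KI9 farther and 25 with 1D5 farther. Which clone was farther was not counted under the other scalings, and the split between the clones moved with the scaling. Alpha and gamma globins, RHD, SELENBP1 and ALAS2 stood farther from FL in 1KI9, and MSMO1, CSF1 and HBZ in 1D5. Of all genes tested, 68 were called in opposite directions in the clones, and 3 of these by at least 2-fold in each, PTPRK, RNF182 and GNA15. RNF182, a ubiquitin ligase, was listed at 5.34, 5.87 and 5.47 in FL, 2.27, 1.67 and 1.83 in 1D5 and 27.9, 28.7 and 30.5 in 1KI9.

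Proliferation and translation genes showed smaller differences. Of 21 mitosis genes, 19 were called lower (11 under all 5 scalings) and none higher, against 15.5% (8.59%) and 54.7% of all genes. The median was −0.50, and MKI67 differed by −0.68 and −0.89 and TOP2A by −0.50 and −0.67. UBE2C, which feeds the anaphase complex, stood apart at 15.2, 16.98 and 15.5 in FL and at most 1.07 in GATA1s, and had differed by −4.69 in expansion. Cytosolic ribosomal proteins were called lower for 61 of 79 and higher for 1, with a median of −0.31, but 20 remained lower under all 5 scalings, and scaled to the total the median was −0.02. DNA replication gave 6 of 23 higher and 6 lower, 1 of each under all 5 scalings.

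**Figure D5:**
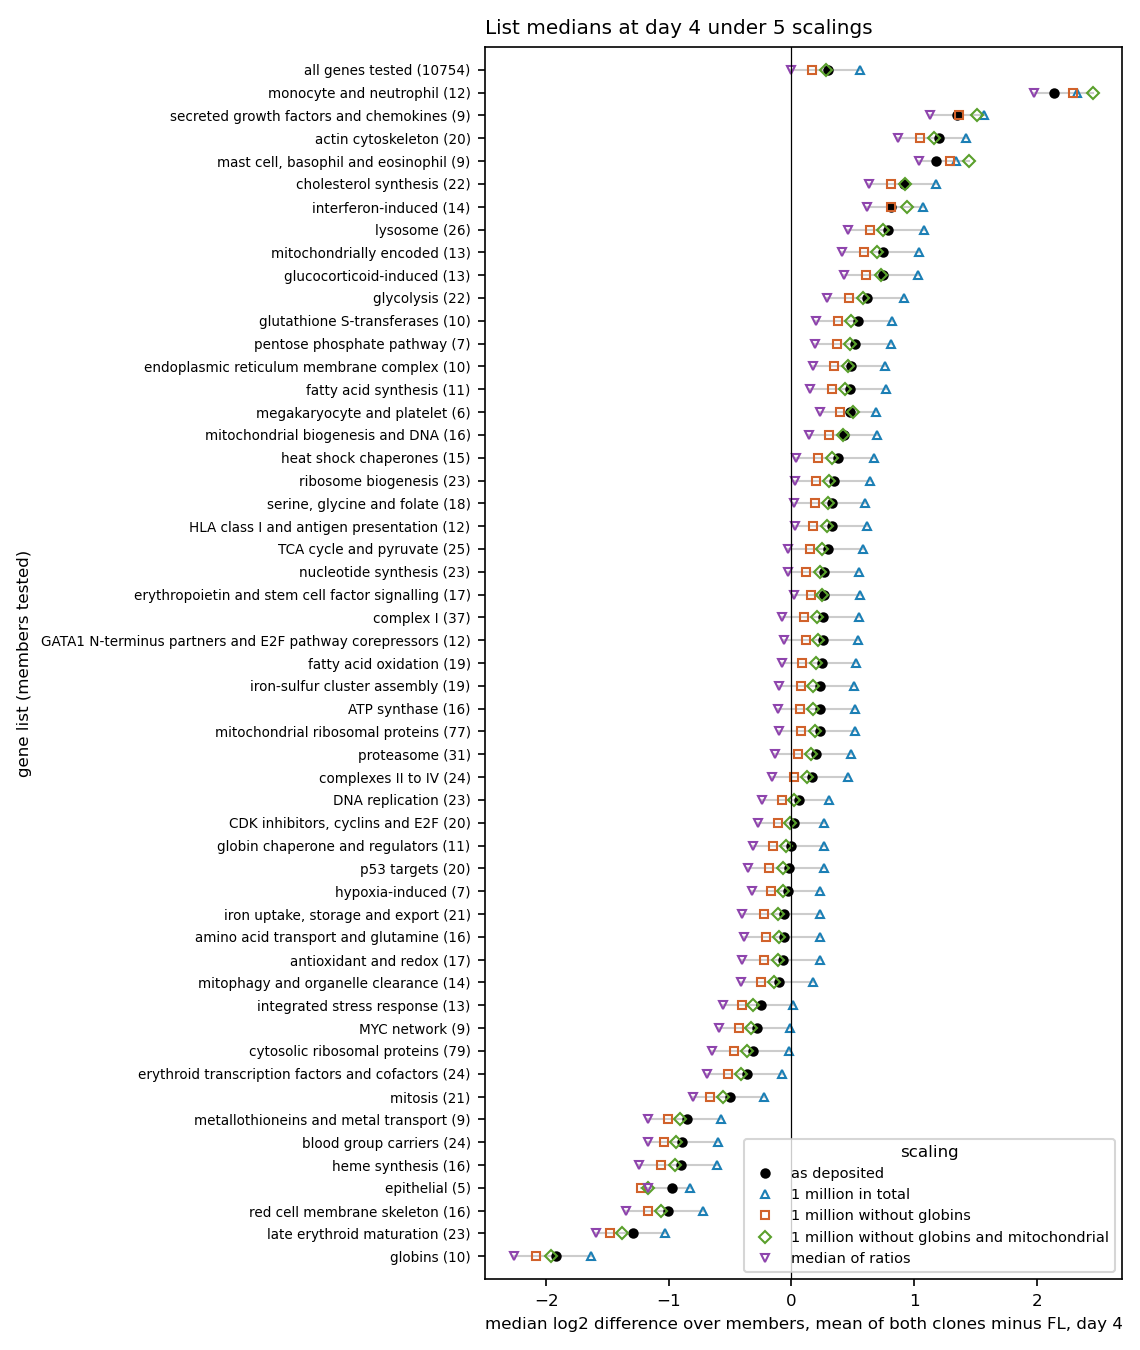
Median log2 difference of the mean of both clones from FL over the members tested of each gene list (x axis), with the list and its number of members on the y axis; symbols are the 5 scalings, and the line joins their range. Globins (−1.92 as deposited), late erythroid genes (−1.29) and the membrane skeleton (−1.01) lie below 0 and actin (1.20), cholesterol (0.92) and lysosome (0.79) above 0 under each scaling, whereas that of complex I, for one, runs from −0.08 to 0.55.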

How the data were processed

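Poly(A) RNA of HUDEP1 clones was sequenced, and the authors deposited 1 table of 13358 genes. Tools named in the submitters' processing notes were Trim Galore 0.60, STAR 2.7 and RSEM 1.31, with build hg38 (GRCh38.p12). Expansion columns were deposited as TPM. The deposited day-4 columns behaved as a TPM-like signal with a further scaling not given in the sources used here, since they summed to between 814583 and 1081251 and the FL libraries exceeded the total of 1000000 that TPM allows. The design had assumed TPM throughout, and the same log-scale test was kept. Neither unit keeps read depth, so depth is unknown and no counting intervals were computed.

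Symbols came from the table and, for genes without one, from GENCODE release 29. Values were taken as log2(value + 1) for genes at 1 or more in at least 3 of the 9 day-4 libraries, and fitted with limma 3.58.1 in R 4.3.3, with a mean per clone and moderated variances that follow the level. Day 4 was compared with expansion in a fit of all 18 libraries. Shares of the total were tested by exact permutation over libraries (scipy 1.17.1). The procedure was tested on simulated data.

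Named genes were the 12 highest and 12 lowest among those at least 2-fold in both clones with a group mean of at least 20, ranked by the smaller of the clones' differences. To these came up to 5 called genes of each list with the largest differences, erythroid genes of known role, genes under 0.5 in all libraries of one genotype and at least 10 in all of the other, the 10 most abundant genes, genes at least 2-fold in opposite directions, and GATA1. A few genes that met these rules are not reported here. Other genes named as list members not called, or to show a pair of isoforms, were chosen after their values were seen. The gene lists and the comparison were chosen with earlier results of these data known. Alternatives were the 5 scalings, pseudocounts of 0.1 and 5, filters, a fit of all 18 libraries, variances with no trend, the replicate number as a block, and each library left out.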

Additional observations from a re-analysis of the deposited data

Results flagged for a closer look

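The difference of the GATA1s clones from FL was larger or smaller at day 4 than in expansion, by the interaction term of the 18-library limma fit, for 22 of the 23 genes named as farthest from FL, all but HBZ. Against a background of 65.1% of genes, this is a description of genes chosen for their day-4 difference. Among the genes above FL, the change (day 4 minus expansion, log2 scale) was 3.2 for CSF1, 2.48 for EVI2B, 1.41 for AKR1C1, 1.36 for APP, 1.18 for HPGD, 0.73 for CHST3, 0.70 for CREB3L1 and 0.44 for AREG. It was −0.71 for GSTM3, −0.70 for HEPH and −0.34 for TMSB4X, which stood farther from FL in expansion. Among the genes below FL it was −4.45 for SELENBP1, −3.89 for HLA-B, −3.68 for OPTN, −3.45 for TMPRSS11F, −3.17 for SLC22A4, −3.04 for SLC7A8, −2.94 for RAP1GAP, −2.81 for SLC30A10, −2.79 for RAB6B, −2.32 for C17orf99 and −1.91 for ERFE.

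The clones lay on opposite sides of FL, each at least 2-fold away, in 3 genes. The difference of 1KI9 from 1D5 was −2.52 for PTPRK, a receptor phosphatase, 3.37 for RNF182 and 2.5 for GNA15, a G protein subunit of blood cells. PTPRK was listed at 4.19, 4.36 and 3.84 in FL, 11.2, 9.57 and 11.1 in clone 1D5 and 1.11, 0.97 and 0.97 in clone 1KI9. GNA15 was listed at 5.07, 5.11 and 4.97 in FL, 1.72, 2.25 and 2.05 in clone 1D5 and 16.3, 16.6 and 15.2 in clone 1KI9. The mean of both clones also differed from FL by another amount at day 4 than in expansion, by 1.68 for PTPRK, 0.45 for RNF182 and 1.29 for GNA15.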

How the results depend on the processing

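The counts of genes called in both clones and of genes whose difference changed between conditions stayed within 1.5 times under every alternative run. The count at least 2-fold in both clones was 591 with a pseudocount of 5, against 1171, and the count differing between the clones was 2065 in the fit of all 18 libraries, against 3173; the cause was not tested. With any library left out the globin share differed by −23.3 to −21.7 percentage points and the mitochondrially encoded share by 8.28 to 8.92, but without an FL library 6 against 2 libraries cannot go below p = 0.0714 in the exact test. Replicate numbers are not stated to pair libraries: same-numbered libraries correlated between −0.17 and 0.45 in their deviations from the group means, and others between −0.41 and 0.27. With the replicate number as a block, 7710 genes were called (5982 higher, 1728 lower), 815 and 356 at 2-fold, 3398 between the clones and 7253 between conditions. Of 2581 gene values under alternatives, 2539 kept direction and call, 4 lost the call, 17 gained it and 21 changed sign, the last in 11 genes near 0 or with clones on opposite sides. By the median of ratios these were ALAS1 (−0.18), CA1 (−0.12), GNA15 (−0.04), MPP1 (−0.04), RHAG (−0.26) and STOM (−0.15), without globins ALAS1 (−0.01) and RHAG (−0.08), and scaled to the total FTH1 (0.23), HBD (0.26), MYL6 (0.16), PTPRK (0.12) and SLC40A1 (0.27). With a pseudocount of 5 they were HBD (0.01) and PTPRK (0.09), and with a library left out HBD (−0.04 to 0.07) and SLC40A1 (−0.05 to 0.01). Depth is unknown, so it sets no limit that could be stated.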

Other observations

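Interferon-induced genes were mixed and differed between the clones. Of 14 tested, 9 were called higher in both clones (7 under all 5 scalings) and 4 lower (4), against 54.7% and 15.5% of all genes, and 8 were lower and 2 higher in 1KI9 than in 1D5. IFIT2, an RNA-sensing antiviral protein, was listed at 0.30, 0.22 and 0.18 in FL, 8.61, 8.55 and 8.54 in 1D5 and 1.66, 1.56 and 1.30 in 1KI9. ISG15, a ubiquitin-like protein, was at 10.7, 13.6 and 12.2 in FL, 43.9, 54.4 and 45.5 in 1D5 and 15.3, 14.7 and 13.0 in 1KI9, and did not pass in 1KI9 (adjusted p = 0.052 by limma). It passed in both clones with the replicate number as a block and in 6 other settings, with a mean difference between 1.01 and 1.34. IFI27 went the other way, at 49.2, 47.5 and 45.4 in FL and between 6.61 and 13.0 in the GATA1s libraries.

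Glucocorticoid-induced genes were called higher for 10 of 13 (8 under all 5 scalings) and lower for 1, although dexamethasone is listed for the expansion medium only. Of all genes, 54.7% were called higher (29.5% under all 5 scalings) and 15.5% lower. FKBP5, a chaperone of steroid receptors, was at 50.0, 49.0 and 52.5 in FL, 194, 185 and 196 in 1D5 and 177, 177 and 185 in 1KI9. Among secreted factors, CXCL8, a neutrophil chemokine, was at 46.0, 46.3 and 44.2 in FL, 151, 154 and 150 in 1D5 and 230, 228 and 211 in 1KI9. TGFB1 differed by 1.14 and 1.13. TIMP1, an inhibitor of matrix proteases, was among the 10 most abundant genes of the GATA1s libraries other than globins and mitochondrially encoded ones, at 5019, 5325 and 4769 in 1D5 and 3807, 3911 and 3641 in 1KI9, against 981, 946 and 938 in FL.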
